A study of Homo sapiens with 8 samples.

Results

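Secreted growth factors that act on receptor tyrosine kinases were examined in PNT2, an established line of immortalized prostate epithelial cells of human origin. The set holds 10 genes chosen by name, of 33791 genes with summed counts: the EGFR ligands *AREG*, *EREG*, *HBEGF*, *TGFA*, *BTC* and *EPGN*, the ERBB3 and ERBB4 ligand *NRG1*, the FGF ligand *FGF2* with its carrier *FGFBP1*, and *PDGFA*. All 10 passed the filter on low counts that kept 14653 genes for testing. RNA-seq was performed on 8 libraries, 2 (replicates A and B) in each of 4 groups. These were the parental line (WT), 2 single-loss groups labelled *ERF* KD and *CIC* KO, and the double-loss group *ERF* KD + *CIC* KO, whose genotype GEO gives as *CIC*-*ERF* codeletion. Per the study's methods, *ERF* was silenced with short hairpins under puromycin selection, *CIC* was disrupted with guide RNAs under blasticidin selection, and the double lines carried 1 *ERF* hairpin with either of 2 *CIC* guides. Cells of each group were grown in DMEM with 10% serum. Which hairpin or guide belongs to which library, and what the letters A and B stand for, is not given in the sources used here, so the p-values measure the spread between 2 libraries that may be technical.

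Libraries held between 19477473 and 25813157 estimated counts. *ERF* mRNA was 55.8 and 55.9 CPM (the usual depth-normalised count, here with TMM scaling) in WT replicates A and B, 81.2 and 77.8 in the libraries labelled *ERF* KD, 18.8 and 11.7 in those labelled *CIC* KO, and 11.6 and 10.4 in *ERF* KD + *CIC* KO. The single-loss group with little *ERF* mRNA was thus the one labelled *CIC* KO, and the file names of these 4 libraries carry the letters of the other single-loss group. Groups are called by their labels here, and each direction drawn from a single-loss group rests on these labels. *CIC* mRNA, which guide RNAs need not change, was 90.9 and 66.4 CPM in *ERF* KD + *CIC* KO and 108.5 to 132 in the other 6 libraries. Against WT the former was a log2 fold change of -0.71 (adjusted p = 0.122 by edgeR, or 0.0399 with the replicate block, which fits the letter as a term). The libraries labelled *ERF* KD also stood apart in cell type markers. The summed level of 8 epithelial markers was 1645 to 2107 CPM there and 3794 to 5210 in the other 6 libraries, and that of 8 fibroblast or mesenchymal markers was 1611 to 1994 CPM against 97.4 to 242. *VIM* alone made up nearly all of the mesenchymal sum in labelled *ERF* KD. *COL1A1* (65.5 and 30.7 CPM in labelled *ERF* KD, 37.3 and 25.8 in WT) overlapped, and *DCN* was under 1 CPM in each library. *CDH1*, the epithelial cadherin, was 17.6 CPM in both against 362 and 385 in WT, and *VIM*, which encodes an intermediate filament of mesenchymal cells, was 1497 and 1953 against 105 and 211. *LUM* and the luminal prostate marker *KLK3* were at 0 in all 8 libraries, and 4 blood markers summed to 1.79 to 10.9 CPM. The 4 endothelial markers summed to 4.42 to 68.5 CPM, the highest being *ERF* KD + *CIC* KO replicate A, where *CDH5* was 65.4. The part of these marker shifts in the growth factor values was not tested. In bulk RNA, fewer cells of a type and less RNA per cell cannot be told apart.

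The EGFR ligands are made as membrane-anchored precursors. Metalloproteases such as ADAM17 cut them at the cell surface, and the freed domain binds EGFR on the same or a neighbouring cell and feeds the RAS-MAPK pathway. Epithelial cells commonly use this loop to sustain their own growth and migration, and EGFR signalling in turn raises the mRNA of several of its ligands. *CIC* and *ERF* encode transcriptional repressors that are inactivated downstream of the same MAPK pathway. FGF2 and PDGF-A act through their own receptor tyrosine kinases, the FGF receptors and PDGFRA.

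*EREG* (chromosome 4, 74365143 to 74388751), *AREG* (74445134 to 74455009), *EPGN* (74308473 to 74315307) and *BTC* (74744759 to 74794686, minus strand) lie in 1 stretch of chromosome 4 in GENCODE release 29 (GRCh38), the first 3 on the plus strand. *FGF2* (122826708 to 122898236, plus) and *FGFBP1* (15935569 to 15938740, minus) are also on chromosome 4. *HBEGF* is on the minus strand of chromosome 5 (140332843 to 140346631), *TGFA* on chromosome 2, minus strand (70447280 to 70554193), and *PDGFA* on the minus strand of chromosome 7 (497258 to 520296). *FGF2* shares 804 exonic bases with *NUDT6* on the opposite strand, and the strandedness of the libraries is not given in the sources used here, so reads of the 2 genes may be mixed.

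The study names GGAA as the core bound by ERF and other ETS proteins. Both strands of RefSeq promoter windows (GRCh38.p14, 250 bases before to 50 after a start) were searched for these letters. Of the members, 9 had windows, 13 in all. GGAA, which 95.5% of all 35116 windows hold, was in 12 of the 13. The number of GGAA matches, with a median of 3 over all windows, was 8 in *FGFBP1*, 5 in *EREG*, 3 in *AREG* and 0 in *FGF2*. It was 3 and 7 in the windows of *TGFA*, and from 1 to 3 in those of the other members.
Upstream stretches, from 250 to 11 bases before the start, are shown for 3 members. *AREG* had the largest difference between 2 groups, *EREG* is its neighbour on the chromosome, and *FGFBP1* had a called difference and the most GGAA matches. Capitals mark GGAA on either strand. They are chr4:74444886-74445125 (plus strand), chr4:74364895-74365134 (plus) and chr4:15938751-15938990 (minus), and hold 3, 4 and 6 matches.
AREG: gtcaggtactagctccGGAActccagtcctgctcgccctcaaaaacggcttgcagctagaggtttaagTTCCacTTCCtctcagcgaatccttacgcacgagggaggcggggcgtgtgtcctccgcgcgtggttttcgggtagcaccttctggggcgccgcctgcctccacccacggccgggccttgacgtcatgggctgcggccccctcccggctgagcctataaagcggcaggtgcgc
EREG: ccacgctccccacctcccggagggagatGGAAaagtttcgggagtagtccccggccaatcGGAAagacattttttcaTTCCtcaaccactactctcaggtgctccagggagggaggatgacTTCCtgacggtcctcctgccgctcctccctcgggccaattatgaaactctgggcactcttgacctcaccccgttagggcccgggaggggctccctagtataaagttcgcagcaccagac
FGFBP1: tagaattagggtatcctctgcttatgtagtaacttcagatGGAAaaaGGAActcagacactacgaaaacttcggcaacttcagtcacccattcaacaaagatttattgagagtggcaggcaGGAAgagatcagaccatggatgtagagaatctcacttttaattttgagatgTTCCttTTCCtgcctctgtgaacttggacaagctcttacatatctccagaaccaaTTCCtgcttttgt
A match describes these letters only and says nothing of binding.

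Levels between genes were compared in TPM, which corrects for transcript length. Averaged over the 8 libraries, the order was *AREG* (114 TPM), *EPGN* (48.5), *TGFA* (44.3), *EREG* (37.4), *FGF2* (36.2), *HBEGF* (15.8), *BTC* (7.96), *PDGFA* (6.83), *NRG1* (5.96) and *FGFBP1* (4.61). In WT, *AREG* had 77.2 and 164 TPM and was above each other member in both libraries. *EPGN* (50.1 and 53.3 TPM) and *TGFA* (43.2 and 58.4) overlapped in WT, as did *BTC* (9.02 and 10.1) and *PDGFA* (7.89 and 14.1), and *NRG1* (2.32 and 5.61) and *FGFBP1* (2.86 and 5.16). *EREG* (30.5 and 45.0 TPM) overlapped with *TGFA* and with *FGF2* (28.4 and 31.8), whereas *HBEGF* (12.9 and 16.1) was below these and overlapped only with *PDGFA*. Thus 4 of the 6 EGFR ligands were among the 5 most abundant members. The files list 4 *TGFA*, 2 *BTC* and 1 *AREG* transcripts a second time under identifiers outside GENCODE 29, with the same length and, within a relative tolerance of 0.001, the same estimated counts in each library. These entries were added for the TPM values alone, so the CPM of *TGFA* and *BTC* given below understate their levels.

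**Figure D1:**
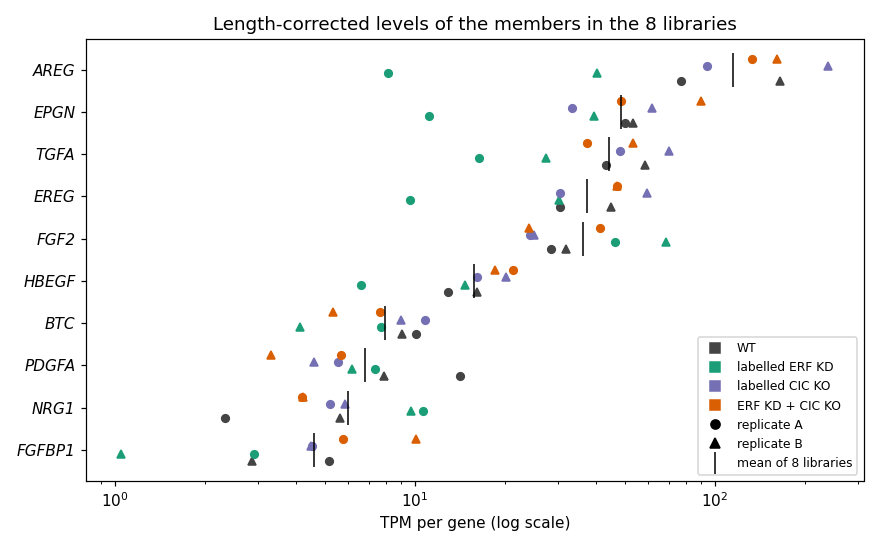
TPM per gene on a log scale for the 10 members in each of the 8 libraries (colours, groups; circles, replicate A; triangles, replicate B; vertical ticks, mean of 8 libraries). *AREG* has the highest mean (114 TPM) and *FGFBP1* the lowest (4.61), and the *AREG* values of the libraries labelled *ERF* KD (8.11 and 40.4) lie below the others.

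Compared to WT, the EGFR ligands were lower in the libraries labelled *ERF* KD in each replicate letter, most of all *AREG*, while *FGF2* and *NRG1* rose. By edgeR's quasi-likelihood test, 2 of the 10 members had a Benjamini-Hochberg adjusted p under 0.05 in this comparison, both higher, where 10.1% of all genes tested were called. In a fit that blocked on replicate letter, 5 were called, 2 higher and 3 lower (*AREG*, *TGFA* and *EPGN*), where 18.2% of all genes were called. The median log2 fold change of the 10 members was -0.81 and that of all genes 0.01. Of the members, 8 had groups that did not overlap, 6 below WT and 2 above, as did 56.3% of all genes tested.

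*AREG* encodes amphiregulin, a low-affinity EGFR ligand abundant in epithelia. It was 50.1 and 117 CPM in WT replicates A and B, 5.38 and 28.5 in the libraries labelled *ERF* KD, 62.0 and 176 in those labelled *CIC* KO, and 89.7 and 119 in *ERF* KD + *CIC* KO. Both libraries labelled *ERF* KD lay below the other 6, and those of the remaining groups overlapped. The WT level was 9.31 times that of labelled *ERF* KD in replicate A and 4.09 times in replicate B. The log2 fold change was -2.30 (SE 0.766, adjusted p = 0.104 by edgeR), or -2.47 (SE 0.369, adjusted p = 0.00247) with the replicate block. Replicate B exceeded A in each group, by 2.33-fold in WT, 5.28-fold in labelled *ERF* KD, 2.84-fold in labelled *CIC* KO and 1.33-fold in *ERF* KD + *CIC* KO, so the SD in WT (47.0 around a mean of 83.4 CPM, n = 2) was wide. A single transcript carried 99.0% of the TPM of *AREG*.

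*EREG*, which encodes epiregulin and binds EGFR and ERBB4, was 63.9 and 111 CPM in WT, 25.1 and 75.1 in labelled *ERF* KD, 69.3 and 165 in labelled *CIC* KO, and 120 and 129 in *ERF* KD + *CIC* KO. The libraries labelled *ERF* KD overlapped with WT, and both *ERF* KD + *CIC* KO libraries were above both WT libraries. Neither difference passed the test, at -0.80 on the log2 scale (SE 0.538, adjusted p = 0.410) in labelled *ERF* KD and 0.51 (SE 0.532, adjusted p = 0.706) in *ERF* KD + *CIC* KO by edgeR.

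*EPGN* encodes epigen, a low-affinity EGFR ligand. Its level was 24.5 and 28.2 CPM in WT, 5.28 and 20.6 in labelled *ERF* KD, 16.4 and 37.3 in labelled *CIC* KO, and 25.1 and 45.1 in *ERF* KD + *CIC* KO. Both libraries labelled *ERF* KD were below both WT libraries, replicate A by 4.63-fold and replicate B by 1.37-fold. The log2 fold change was -1.02 (SE 0.602, adjusted p = 0.344 by edgeR), or -1.27 (SE 0.337, adjusted p = 0.0341) with the block.

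*TGFA*, which encodes transforming growth factor alpha, was 44.0 and 66.3 CPM in WT, 18.6 and 32.4 in labelled *ERF* KD, 53.3 and 90.3 in labelled *CIC* KO, and 40.9 and 63.9 in *ERF* KD + *CIC* KO. The libraries labelled *ERF* KD lay below the other 6, at 2.37-fold under WT in replicate A and 2.04-fold in replicate B. The log2 fold change was -1.11 (SE 0.369, adjusted p = 0.103 by edgeR), or -1.13 (SE 0.117, adjusted p = 0.000341) with the block. Replicate B exceeded A by 1.51-fold to 1.74-fold in the 4 groups, a more even difference than that of *AREG*.

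*HBEGF* encodes the heparin-binding ligand of EGFR and ERBB4. It was 18.7 and 25.5 CPM in WT, 9.80 and 22.6 in labelled *ERF* KD, 24.5 and 33.3 in labelled *CIC* KO, and 31.8 and 29.9 in *ERF* KD + *CIC* KO. The libraries labelled *ERF* KD overlapped with WT (log2 fold change -0.45, SE 0.357, adjusted p = 0.495 by edgeR), and without *ERF* KD replicate A this value was 0.039. *BTC*, which encodes betacellulin, was 5.98 and 6.58 CPM in WT, 4.803 and 2.33 in labelled *ERF* KD, 6.42 and 6.93 in labelled *CIC* KO, and 5.16 and 4.17 in *ERF* KD + *CIC* KO. Its libraries of labelled *ERF* KD and of *ERF* KD + *CIC* KO were below both WT libraries, with log2 fold changes of -0.81 (SE 0.355, adjusted p = 0.202 by edgeR) and -0.42 (SE 0.351, adjusted p = 0.629). It was the EGFR ligand with the lowest counts, down to 47 in 1 library.

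**Figure D2:**
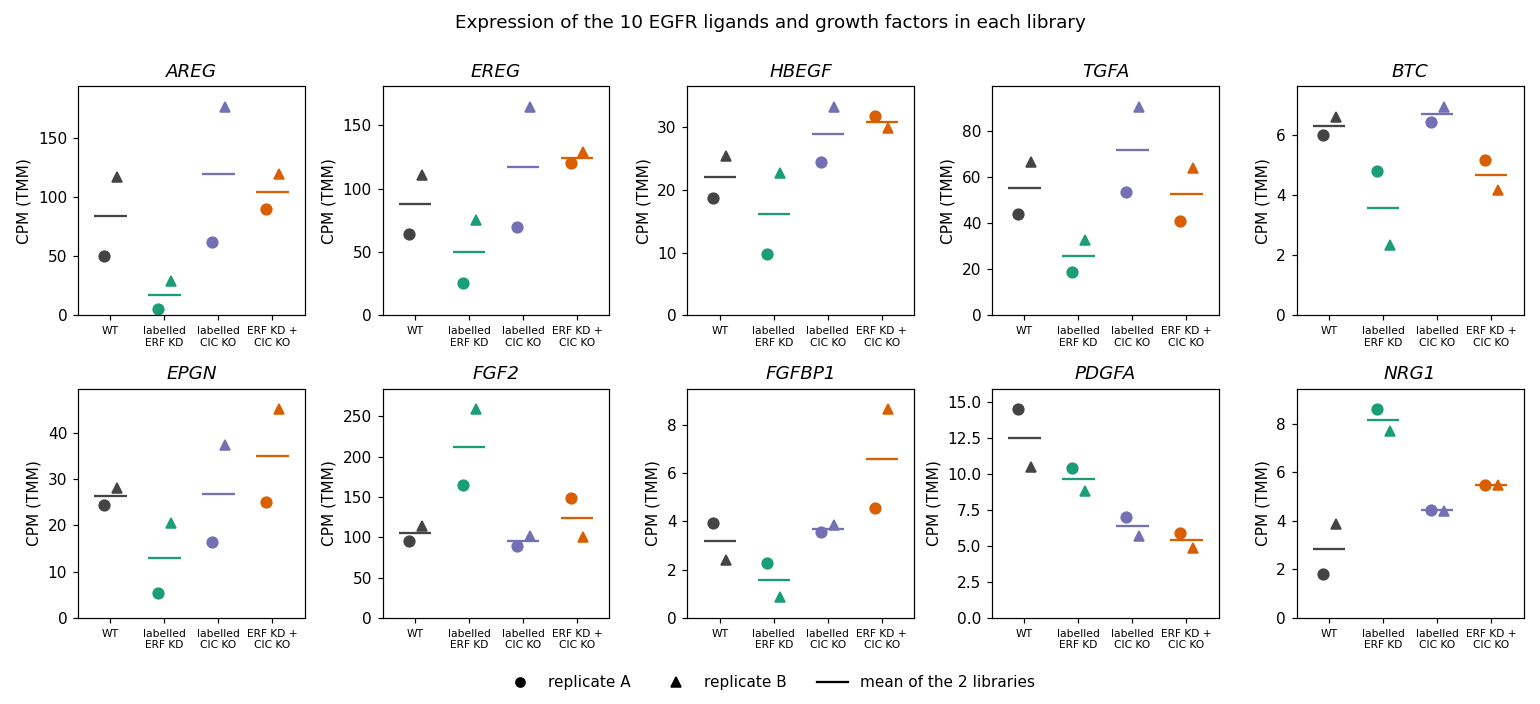
CPM (TMM-scaled) of each member in each library by group (circles, replicate A; triangles, replicate B; bars, mean of the 2 libraries); each panel starts at 0. *AREG* and *TGFA* are lowest in the libraries labelled *ERF* KD (5.38 and 28.5 CPM, 18.6 and 32.4 CPM), where *FGF2* and *NRG1* are highest.

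*NRG1* (31639386 to 32767959 on the plus strand of chromosome 8, GRCh38) encodes neuregulin 1, which signals through ERBB3 and ERBB4 rather than by binding EGFR. It was 1.80 and 3.87 CPM in WT and rose to 8.60 and 7.70 in both libraries labelled *ERF* KD, or by 1.52 on the log2 scale (SE 0.360, adjusted p = 0.0335 by edgeR). It was 4.46 and 4.43 CPM in labelled *CIC* KO and 5.46 and 5.47 in *ERF* KD + *CIC* KO, both above WT, with log2 fold changes of 0.65 (SE 0.360, adjusted p = 0.9997) and 0.95 (SE 0.359, adjusted p = 0.324). On the TPM scale, *ERF* KD + *CIC* KO (4.18 and 4.24) lay inside the WT range of 2.32 to 5.61 and labelled *CIC* KO (5.19 and 5.86) overlapped it, while the libraries labelled *ERF* KD (10.6 and 9.66) remained above it. Its reads were spread over many transcripts, the most used of which carried 18.0% of its TPM, and its counts were between 38 and 179. Of the 8 fits that each left out 1 library, 3 called *NRG1* in labelled *ERF* KD, with adjusted p from 0.0204 to 0.173. The call was lost without WT replicate A (log2 fold change 1.07) and without either library of labelled *ERF* KD (1.44 and 1.60) or of *ERF* KD + *CIC* KO (1.51 and 1.52). The *NRG1* call also ended with length-scaled counts (adjusted p = 0.0986), in limma fits of log2 TPM with a pseudocount of 1 or 0.1 (0.0618 and 0.0691) and in a fit of only the groups compared (0.0795).

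*FGF2* encodes basic fibroblast growth factor, which leaves cells without a signal peptide and is held by heparan sulfate. It was 95.5 and 114 CPM in WT and rose to 164 and 258 in both libraries labelled *ERF* KD, or by 1.01 on the log2 scale (SE 0.254, adjusted p = 0.0412 by edgeR). It was 89.3 and 102 CPM in labelled *CIC* KO, and 149 and 100.2 in *ERF* KD + *CIC* KO, which overlapped with WT (log2 fold change 0.25, SE 0.252, adjusted p = 0.695). Of the 8 fits that left out 1 library, 3 called the rise in labelled *ERF* KD, with adjusted p from 0.0201 to 0.232. It was lost without either WT library (log2 fold change 0.89 and 1.15), without labelled *ERF* KD replicate B (0.65) and without either library labelled *CIC* KO (1.01 and 1.02). The *FGF2* call also ended with length-scaled counts (adjusted p = 0.0594), in both limma fits (0.0962 and 0.0933) and in a fit of only the groups compared (0.0525). Of its 2 transcripts in the files, the major one carried 67.4% and the minor one 32.6% of its TPM. The minor transcript was 11.1 and 13.98 TPM in WT, 16.3 and 22.7 in labelled *ERF* KD, 6.33 and 6.92 in labelled *CIC* KO, and 12.7 and 4.50 in *ERF* KD + *CIC* KO, whereas the major transcript was 17.3 and 17.8 in WT, 30.1 and 45.7 in labelled *ERF* KD, 17.9 and 18.0 in labelled *CIC* KO, and 28.6 and 19.6 in *ERF* KD + *CIC* KO. These transcript values are estimates that were not tested. GENCODE 29 has 4 *FGF2* transcripts.

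*FGFBP1* encodes a secreted carrier that releases FGF2 from heparan sulfate. It was 3.94 and 2.40 CPM in WT, 2.26 and 0.844 in labelled *ERF* KD, 3.53 and 3.85 in labelled *CIC* KO, and 4.53 and 8.63 in *ERF* KD + *CIC* KO. Both libraries labelled *ERF* KD were below the other 6 and both *ERF* KD + *CIC* KO libraries above them, although in TPM labelled *ERF* KD replicate A (2.90) was above WT replicate B (2.86). The lowest value stood on 17 counts. *FGFBP1* was higher in *ERF* KD + *CIC* KO than in labelled *ERF* KD, the only member called by the edgeR fit in that comparison (log2 difference 2.07, SE 0.530, adjusted p = 0.0410), by 2.01-fold in replicate A and 10.2-fold in replicate B. Of the 8 fits that left out 1 library, the one without labelled *ERF* KD replicate A kept this call (2.95), and the other 7 gave 1.54 to 2.47 with adjusted p from 0.0524 to 0.186. The *FGFBP1* call also ended with length-scaled counts (adjusted p = 0.0559), in limma with a pseudocount of 0.1 (0.0505) and in a fit of only the groups compared (0.0738). Neither group passed the test against WT, with log2 fold changes of -1.03 (SE 0.528, adjusted p = 0.279) and 1.05 (SE 0.505, adjusted p = 0.417). *FGF2* and *FGFBP1* thus had values of opposite sign between these groups, *FGF2* at a log2 difference of -0.76 (SE 0.253, adjusted p = 0.0913).

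*PDGFA* encodes the A chain of platelet-derived growth factor, the ligand of PDGFRA. Its level was 14.5 and 10.5 CPM in WT, 10.4 and 8.84 in labelled *ERF* KD, 7.02 and 5.68 in labelled *CIC* KO, and 5.93 and 4.85 in *ERF* KD + *CIC* KO. Each group lay below both WT libraries. In *ERF* KD + *CIC* KO the log2 fold change was -1.21 (SE 0.260, adjusted p = 0.116 by edgeR), or -1.20 (SE 0.198, adjusted p = 0.0274) with the replicate block. In labelled *CIC* KO it was -0.98 (SE 0.258, adjusted p = 0.9997), or adjusted p = 0.283 with the block, with an unadjusted p of 0.00504. The 2 letters gave close values, a log2 difference from WT of -1.04 and -0.88 in labelled *CIC* KO and of -1.29 and -1.11 in *ERF* KD + *CIC* KO. The 4 libraries with low *ERF* mRNA had the lowest *PDGFA* levels. Labelled *ERF* KD, where *ERF* mRNA was 81.2 and 77.8 CPM, was also below WT in *PDGFA*. A link between *PDGFA* and *ERF* was not tested.

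In the libraries labelled *CIC* KO against WT, 0 of the 10 members and 0% of all genes were called by edgeR, with 1 member (*PDGFA*) and 587 genes at an unadjusted p under 0.05. DESeq2 called 0 members and 25 genes. The EGFR ligands had values from 0.03 (*EPGN*) to 0.51 (*AREG*) on the log2 scale, with SE from 0.347 to 0.718. Of the members, 2 had groups that did not overlap, *PDGFA* below and *NRG1* above, against 32.2% of all genes tested.

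In *ERF* KD + *CIC* KO against WT, 0 of the 10 members were called by edgeR, where 0.0682% of all genes were, and 2 members (*PDGFA* and *NRG1*) and 1950 genes had an unadjusted p under 0.05. DESeq2 and the fit with the replicate block each called 1 member, *PDGFA*, lower, and the block called 2.49% of all genes. The values of *AREG* (0.32), *EREG* (0.51), *HBEGF* (0.48) and *EPGN* (0.41) were positive and those of *TGFA* (-0.08) and *BTC* (-0.42) negative on the log2 scale. Leaving out 1 library turned the sign of *AREG* (-0.16 without WT replicate A), *EPGN* (-0.063 without *ERF* KD + *CIC* KO replicate B) and *TGFA* (0.25 without WT replicate B, 0.21 without *ERF* KD + *CIC* KO replicate A). Of the members, 6 had groups that did not overlap, *EREG*, *HBEGF*, *FGFBP1* and *NRG1* above and *BTC* and *PDGFA* below, against 49.5% of all genes.

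**Figure D3:**
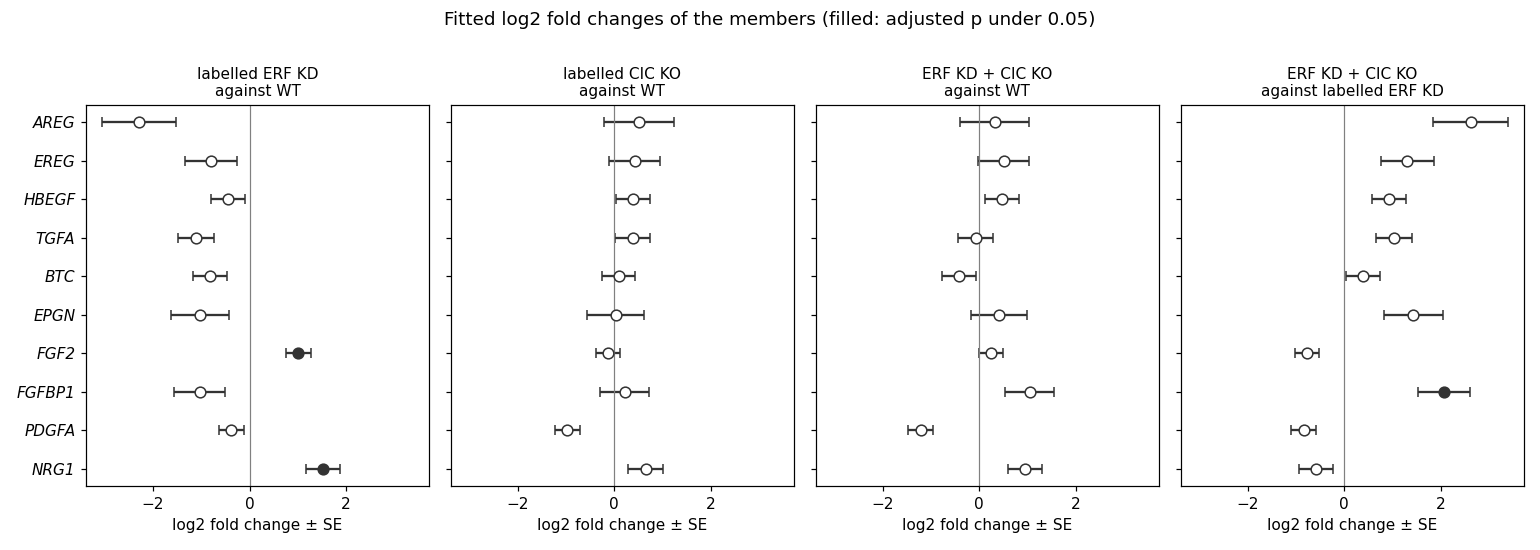
Log2 fold change (edgeR) with SE as bars for each member in 4 comparisons, filled where the adjusted p is under 0.05. The filled points are *FGF2* (1.01) and *NRG1* (1.52) in labelled *ERF* KD against WT and *FGFBP1* (2.07) in *ERF* KD + *CIC* KO against labelled *ERF* KD; the first and last panels share the libraries labelled *ERF* KD.

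*ERF* KD + *CIC* KO was next compared with each single-loss group. Against labelled *ERF* KD, 1 of the 10 members was called by edgeR (*FGFBP1*, given above), where 11.7% of all genes were called. An unadjusted p under 0.05 was found for 8 members and for 3862 genes, or 26.4% of all genes tested. *AREG* had the largest difference, 2.62 on the log2 scale (SE 0.773, adjusted p = 0.0655), at 16.7-fold in replicate A and 4.17-fold in replicate B. With the replicate block, 7 members were called, where 20.6% of all genes were. Of these, 6 were higher: *AREG* (adjusted p = 0.00102), *TGFA* (0.000490), *EREG* (0.00819), *EPGN* (0.0120), *FGFBP1* (0.0233) and *HBEGF* (0.0258). *PDGFA* was lower (adjusted p = 0.0193). In this comparison 9 members had groups that did not overlap, all but *BTC*, against 53.4% of all genes. It shares the libraries labelled *ERF* KD with the comparison to WT above, so the 2 are not independent.

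Against labelled *CIC* KO, 0 of the 10 members and 0% of all genes were called by edgeR, and 0 members had an unadjusted p under 0.05, against 1216 genes. DESeq2 called 0 members and 132 genes. The member values ran from -0.51 (*BTC*) to 0.83 (*FGFBP1*) on the log2 scale.

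The interaction term gives the change in *ERF* KD + *CIC* KO less both single-loss changes added together, and is the same whichever of these groups is which. It was called for 0 of the 10 members by edgeR, where 4.15% of all genes were called, with *FGFBP1* and *NRG1* at an unadjusted p under 0.05 and 2565 genes. DESeq2 also called 0 members, and 1102 genes. The largest terms were 2.11 for *AREG* (SE 1.04, adjusted p = 0.352), 1.86 for *FGFBP1* (SE 0.728, adjusted p = 0.234), 1.41 for *EPGN* (SE 0.840, adjusted p = 0.461) and -1.22 for *NRG1* (SE 0.4999, adjusted p = 0.253). With the replicate block, 2 members were called, *AREG* at 2.51 (SE 0.4998, adjusted p = 0.0163) and *TGFA* at 0.69 (SE 0.162, adjusted p = 0.0318), where 9.55% of all genes were.

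The A to B difference correlated weakly across genes between groups (0.136 to 0.335 on edgeR's log CPM). From this hint alone, members were also compared with the WT library of the same letter. Replicate B was above A in each group for *AREG*, *EREG*, *TGFA* and *EPGN* and below it for *PDGFA*. For *HBEGF*, *BTC*, *FGF2*, *FGFBP1* and *NRG1* the direction changed between groups. In labelled *ERF* KD the 10 members had the same direction in both letters, 8 lower and 2 higher. In labelled *CIC* KO, 8 members did, and *EPGN* and *FGFBP1* had opposite directions. In *ERF* KD + *CIC* KO, 9 members did, the exception being *FGF2*, whose log2 difference was 0.64 for letter A and -0.18 for letter B. Genes whose groups do not overlap have the same direction in both letters by definition. Such genes made up 56.3%, 32.2% and 49.5% of all genes tested in these comparisons, in the order given. How many other genes also kept 1 direction was not computed, so the member counts do not set the members apart.

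**Figure D4:**
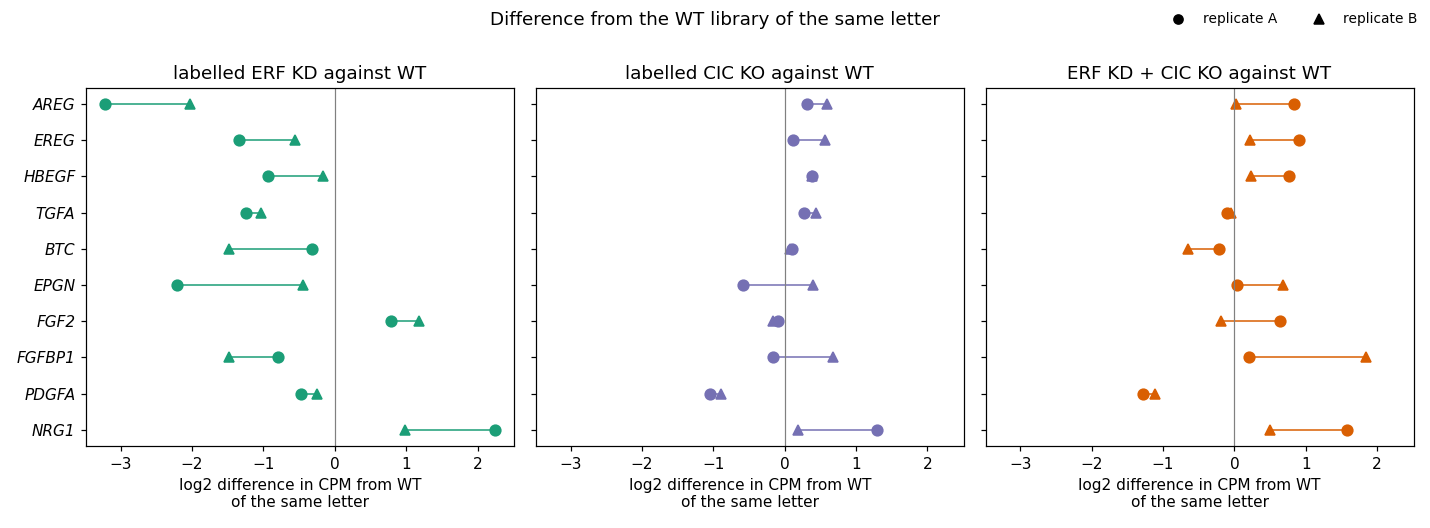
Log2 difference in CPM from the WT library of the same letter for each member (circles, replicate A; triangles, replicate B; lines join the letters of 1 member; vertical line, no difference). In labelled *ERF* KD each joined pair lies on 1 side of the line, from -3.21 and -2.03 for *AREG* to 2.24 and 0.99 for *NRG1*.

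Among the members, *AREG*, *EREG*, *HBEGF*, *TGFA* and *EPGN* varied together over the 8 libraries, with Pearson's r of log2 CPM from 0.835 to 0.971 for their 10 pairs. These 5 were grouped after their values were seen, so the high r describes the grouping and does not support it. *BTC* was less like them (r from 0.103 to 0.481), as was *FGFBP1* (0.374 to 0.502), while *FGF2* (-0.649 to -0.297), *PDGFA* (-0.661 to -0.453) and *NRG1* (-0.466 to -0.214) ran against them. These values describe 8 libraries that share groups and letters, and *TGFA* and the others share library scaling. Of 12606 other protein-coding genes, *BCAR3* (r = 0.980) and *APC* (0.978) had the patterns most like that of *FGF2*, and *ACLY* (0.976) and *PRPSAP1* (0.974) those most like that of *NRG1*, over 8 libraries.

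Receptors, release machinery and related growth factors were described from lists chosen by function, with earlier results of these data known. *EGFR*, singled out after its values were seen as the receptor of 6 members, was 794 and 852 CPM in WT, 644 and 987 in labelled *ERF* KD, 747 and 947 in labelled *CIC* KO, and 829 and 779 in *ERF* KD + *CIC* KO, with overlapping groups. Of 10 receptors 9 were tested, and 2 fell in labelled *ERF* KD, with 0 higher, where 10.1% of all genes were called: *FGFR2*, a receptor of epithelial cells for FGFs, from 19.7 and 15.2 CPM in WT to 2.40 and 0.546 (log2 fold change -3.55, SE 0.670, adjusted p = 0.0135 by edgeR), and *FGFR3*, from 9.26 and 7.44 to 2.79 and 3.03 (-1.52, SE 0.358, adjusted p = 0.0331). With the replicate block, 2 receptors were higher and 3 lower, where 18.2% of all genes were called. The median log2 fold change of the 9 was -0.37, and that of all genes 0.01. *FGFR1*, the most abundant FGF receptor and named after its values were seen, was 60.8 and 86.0 CPM in WT and 95.8 and 119 in labelled *ERF* KD, above WT (log2 fold change 0.55, SE 0.263, adjusted p = 0.243 by edgeR, or 0.57 with adjusted p = 0.0124 with the block). The FGF receptors thus did not share 1 direction. *ERBB3*, a receptor of *NRG1* and also named after its values were seen, was 98.9 and 97.4 CPM in WT. In labelled *ERF* KD it was 69.2 and 30.2, below WT, whereas *NRG1* was above. Its log2 fold change was -0.98 (SE 0.353, adjusted p = 0.127 by edgeR), or -1.07 (adjusted p = 0.0220) with the block.

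Of 20 genes of ligand release and receptor turnover, 3 fell and 1 rose in labelled *ERF* KD by edgeR, against 10.1% of all genes. *ERRFI1*, an EGFR-binding feedback inhibitor, fell from 83.7 and 125 CPM in WT to 15.9 and 23.2, with -2.42 on the log2 scale (SE 0.306, adjusted p = 0.00219). Its interaction term was 2.31 (SE 0.415, adjusted p = 0.0207). *RHBDL2*, a rhomboid protease, fell by 1.39 on the log2 scale (SE 0.310, adjusted p = 0.0270) and *RHBDF1*, an inactive rhomboid that acts on ADAM17, fell by 0.62 (SE 0.139, adjusted p = 0.0272). *LRIG3* rose by 0.83 (SE 0.186, adjusted p = 0.0265). With the replicate block, 3 were higher and 6 lower, against 18.2% of all genes. The median log2 fold change of the 20 was -0.03.

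Of 20 other growth factors of the same families, 13 were tested, and 2 rose and 2 fell in labelled *ERF* KD, against 10.1% of all genes. *FGF1*, which binds all FGF receptors, rose from 3.99 and 5.61 CPM in WT to 12.2 and 15.9 (log2 fold change 1.55, SE 0.372, adjusted p = 0.0356 by edgeR), and *NRG2*, a second neuregulin, from 0.190 and 0.102 to 1.105 and 0.993 (2.79, SE 0.683, adjusted p = 0.0383). *NRG2* was at most 0.192 CPM in each library outside labelled *ERF* KD, and in WT replicate B it was under the level of 3 counts (0.153 CPM). It passed the filter on low counts only through the libraries labelled *ERF* KD, so its calls in comparisons with them are no independent support. *VEGFA*, the main endothelial growth factor, fell from 140 and 137 CPM to 69.1 and 66.7 (-1.03, SE 0.142, adjusted p = 0.00334), and *FGF11*, an intracellular FGF homologue, from 12.7 and 13.6 to 7.78 and 4.22 (-1.13, SE 0.292, adjusted p = 0.0461). With the replicate block, 4 were higher and 3 lower, against 18.2% of all genes. The median log2 fold change of the 13 was 0.16. Against WT, 0 genes of these 3 lists were called by edgeR in labelled *CIC* KO or in the double-loss group, where 0% and 0.0682% of all genes were. With the block, 0 were called in the former, where 1 of all genes was. In the latter the block called 2, both lower, where 2.49% of all genes were called. Of these 2, *ADAM19* had groups that overlapped, at 128 and 320 CPM in WT and 63.9 and 179 in the double-loss group. Between the double-loss group and labelled *ERF* KD, 2 receptors were higher, 1 release gene was higher and 1 lower, and 1 other growth factor was higher and 6 lower, where 11.7% of all genes were called.

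**Figure D5:**
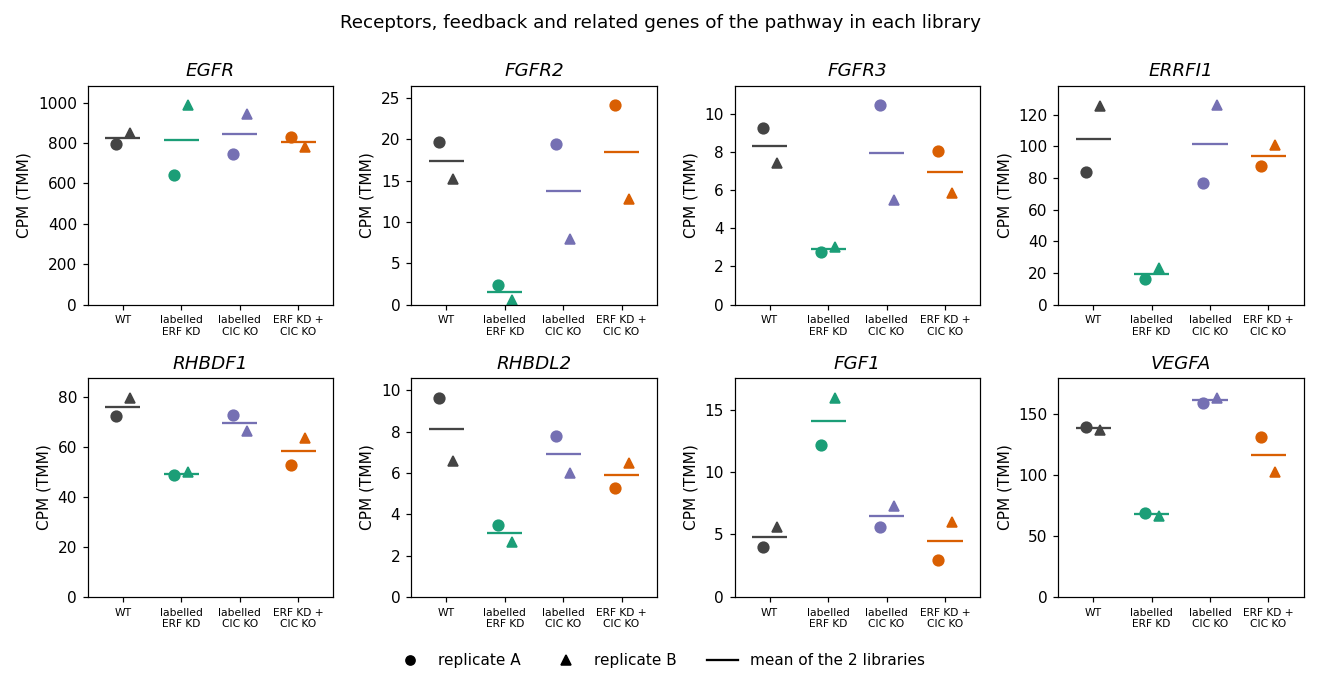
CPM (TMM-scaled) of *EGFR* and of 7 pathway genes called in labelled *ERF* KD against WT, in each library by group (circles, replicate A; triangles, replicate B; bars, mean of the 2 libraries); each panel starts at 0. *FGFR2*, *FGFR3* and *ERRFI1* are lowest and *FGF1* highest in the libraries labelled *ERF* KD, while *EGFR* stays between 644 and 987 CPM. The called genes *LRIG3* and *NRG2*, which rose, and *FGF11*, which fell, are not shown.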

How the data were processed

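RNA-seq was performed on PNT2 cells (8 libraries, 4 groups of 2, grouped by the genotype labels). The authors deposited estimated counts and TPM per transcript in kallisto's columns. The labels name hg19, the study's methods name RSEM 1.3.3, and the kallisto version and annotation are not given in the sources used here. Of 180253 transcripts, 153245 were found by identifier in GENCODE 29 (GRCh38), and these held 93.2% to 93.3% of a library's counts. Estimated counts were summed per gene, rounded, TMM-scaled and tested with edgeR 4.0.16 (R 4.3.3; filterByExpr, glmQLFit, glmQLFTest, 4 groups in 1 fit, Benjamini-Hochberg over all genes, threshold 0.05). CPM and TPM are given per library. The fit was tested on simulated data. DESeq2 1.42.0 and limma 3.58.1 gave alternatives.

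The members, lists and tests were chosen with earlier results of these data known. The named genes are the 10 members, *ERF* and *CIC*, list genes called against WT, and for called members the 2 genes of most similar pattern.

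Replicates differed by more than sampling noise (chi-square per degree of freedom 21.5 to 43.1). Libraries of the same letter were treated as pairs from a hint in the data, as neither labels nor methods explain the letters. The A to B difference correlated across genes at 0.136 to 0.335 for the 6 pairs of groups (edgeR's log CPM), although with a prior of 0.5 counts 1 pair was at 0.0958. An exact test of 2 against 2 cannot go below p = 0.333, so none was used. Some motif and marker results are not reported here.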

Additional observations from a re-analysis of the deposited data

How the results depend on the processing

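With 2 libraries a group, calls near the threshold moved with most settings, and the cause was not tested. The replicate block raised the members called from 2 to 5 in labelled *ERF* KD against WT, from 0 to 1 in *ERF* KD + *CIC* KO against WT, from 1 to 7 in *ERF* KD + *CIC* KO against labelled *ERF* KD and from 0 to 2 in the interaction, and it called 0 members in the other comparisons. It turned the sign of *EPGN* in labelled *CIC* KO against WT to -0.12 and of *AREG* in *ERF* KD + *CIC* KO against labelled *CIC* KO to 0.044 (log2). Testing genes with low counts too gave 6, 1, 7 and 4 members in the same 4 comparisons, where 2577, 760, 2798 and 1643 genes were called. DESeq2 gave 3, 1, 5 and 0 members, where 2000, 388, 2252 and 1102 genes were called. In labelled *ERF* KD against WT, length-scaled counts, limma on log2(TPM + 1), limma on log2(TPM + 0.1) and a fit of only the groups compared each called 0 members. Of all genes, these settings called 1164, 1032, 1094 and 1294, in the order given. In *ERF* KD + *CIC* KO against labelled *ERF* KD these called 0, 2, 1 and 0 members, and 1249, 1113, 1186 and 1219 genes. Adding the identical transcript entries, chosen after seeing the data, changed no call. Over all genes, those called in labelled *ERF* KD against WT numbered 1477 by edgeR, 2671 with the block, 2577 without the filter, 2000 by DESeq2 and 1032 by limma on log2(TPM + 1).

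On length-scaled counts, log2(TPM + 1) and log2(TPM + 0.1), *EPGN* in labelled *CIC* KO against WT was -0.056, -0.18 and -0.19, and *NRG1* in *ERF* KD + *CIC* KO against labelled *CIC* KO was -0.37, -0.32 and -0.38, each reversed. Leaving out each library in turn, which left 1 library in a group, turned the sign of uncalled log2 values with these ranges. In labelled *ERF* KD against WT, *HBEGF* ran from -1.17 to 0.039. In labelled *CIC* KO against WT, *AREG* ran from -0.43 to 1.25, *EREG* from -0.34 to 0.91, *TGFA* from -0.051 to 0.71, *EPGN* from -0.69 to 0.50, *FGF2* from -0.25 to 0.0020 and *FGFBP1* from -0.094 to 0.62. In *ERF* KD + *CIC* KO against WT, *AREG* ran from -0.16 to 1.06, *TGFA* from -0.43 to 0.25, *EPGN* from -0.063 to 0.77 and *FGF2* from -0.066 to 0.51. Against labelled *ERF* KD, *BTC* ran from -0.038 to 0.9999. Against labelled *CIC* KO, *AREG* ran from -0.76 to 0.76, *EREG* from -0.40 to 0.85, *HBEGF* from -0.11 to 0.34 and *EPGN* from -0.093 to 1.103. In the interaction, *BTC* ran from -0.13 to 0.91 and *PDGFA* from -0.10 to 0.35. A lone remaining library was assumed to vary like the other groups. Of the single-gene values under alternatives, 849 kept direction and side of the threshold, 41 passed it newly, 28 lost it and 32 changed sign. *FGFBP1*, *NRG1* and *BTC* had 17 to 179 counts a library, and what this depth limits was not tested.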
